A study of Mus musculus with 36 samples.

Results

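Macrophages sorted from the aortas of Apoe-deficient mice were compared between advanced and early atherosclerosis. The advanced group held 4 libraries from mice kept for 6 months on a high cholesterol diet, and the early group 4 libraries from mice given that diet for 1 month. These 8 libraries were taken by their labels from the 36 of the series, which also covers chow-fed baseline mice, circulating monocytes and peritoneal macrophages. Every animal in all groups carried the Apoe knockout, so no comparison is made with mice that have apolipoprotein E, the carrier through which the liver clears cholesterol-rich particles. The strain and the age of the mice are not in the labels, and neither are the antibodies of the sort gate; age and length of diet cannot be told apart between the groups. The cells came from collagenase digests of the whole aorta, so plaque, inner layer and outer layer were measured together, and fewer cells of a type and less RNA per cell cannot be told apart in such bulk libraries.

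The wall of a healthy artery holds long-lived resident macrophages, many of which carry the hyaluronan receptor LYVE1 and lie in the outer layer. When blood cholesterol is high, monocytes enter the inner layer, take up modified lipoproteins and become foam cells, a state marked by the lipid-sensing receptor TREM2 and by lysosomal and lipid-handling genes. Lipoprotein cholesterol is freed in the lysosome, where proteases such as cathepsin D work beside lipases and glycosidases at the acid pH kept by a proton pump. Macrophages of plaques also secrete metalloproteinases and cathepsins that cut elastin and collagen.

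The promoters of a pair of genes that rose, 1 lysosomal and 1 of the foam cell state, are shown here because each holds a motif with a known reader. CACGTG, read the same on both strands, is the core of the element bound by TFEB and related factors that drive lysosomal genes, and TGACTCA is bound by AP-1 factors such as FOSL2 and JUN. Both stretches are from RefSeq on GRCm38.p6, the assembly also named mm10, and run from 250 bases before to 50 bases after the annotated start, 5′ to 3′ on the strand of the gene, with the motif in capitals.
Ctsd promoter, chr7:142387778-142388077, minus strand: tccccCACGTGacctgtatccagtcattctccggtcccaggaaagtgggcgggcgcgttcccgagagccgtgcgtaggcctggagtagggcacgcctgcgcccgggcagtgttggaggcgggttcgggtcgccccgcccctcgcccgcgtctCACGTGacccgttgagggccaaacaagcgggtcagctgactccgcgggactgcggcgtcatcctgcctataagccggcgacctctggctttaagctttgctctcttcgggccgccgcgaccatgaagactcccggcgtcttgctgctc
Gpnmb promoter, chr6:49036268-49036567, plus strand: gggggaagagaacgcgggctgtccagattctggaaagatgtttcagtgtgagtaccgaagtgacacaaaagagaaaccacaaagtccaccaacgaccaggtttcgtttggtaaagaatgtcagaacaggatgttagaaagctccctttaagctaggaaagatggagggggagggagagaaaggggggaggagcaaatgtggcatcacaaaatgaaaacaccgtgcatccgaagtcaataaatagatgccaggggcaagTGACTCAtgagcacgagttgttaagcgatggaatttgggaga
The Ctsd window holds CACGTG at 2 places and the Gpnmb window TGACTCA at 1 place. These were picked from 6 promoters taken by the same rule. The others, of Mmp12, Nr4a3, Spp1 and Ctsk, hold neither CACGTG nor TGACTCA and are not shown. CACGTG lay in 7.24% of the promoters of 27024 genes, in 10.9% of those of the genes tested (774 of 7082), in 3 of the 25 promoters found for genes that rose (12%), and in 10 of the 38 found for lysosomal and proton pump genes (26.3%). TGACTCA lay in 5.17% of all promoters, in 3.36% of those of tested genes, in 2 of 25 of the genes that rose (8%) and in 4 of 38 of the lysosomal ones (10.5%). TGACGTCA and TATAAA, searched on both strands in the same windows, were in 0 and 2 of the 25, and in 3.54% and 6.64% of the promoters of tested genes. A match says only that these letters stand in the window. Of the 49 called genes, 35 had a promoter in the table.

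The libraries held 1.07 to 2.47 M counted reads at the advanced stage and 1.31 to 2.63 M at the early stage, with means of 2.02 ± 0.65 and 1.98 ± 0.54 M (SD, n = 4 each; exact permutation p = 0.914, two-sided, where 0.0286 is the smallest p that 4 against 4 allows). Thinned to the shallowest library, 11427 ± 1485 genes were detected at the advanced stage and 9789 ± 480 at the early stage (SD, n = 4 each, exact permutation p = 0.114). Advanced 1 held 9216 of them, while advanced 2 to 4 held 12028 to 12418, above every early library (9128 to 10264). What this difference in detection adds to genes with no early reads was not tested. Rank correlations between libraries over genes ran from 0.835 to 0.957 among advanced and from 0.791 to 0.833 among early libraries, and between stages from 0.756 to 0.884. Early 1 to 3 correlated more closely with advanced 2 to 4 (0.855 to 0.884) than any early libraries did with one another. Advanced 1, which was also the shallowest, stood apart: its correlations with the other advanced libraries were 0.835 to 0.842, against 0.945 to 0.957 among the others. Macrophage genes were present in all 8 libraries: Csf1r, the receptor for the growth factor CSF1, was at 1781 to 2265 CPM (counts per 1000000 counted reads of the library) in advanced and 1603 to 2700.2 CPM in early libraries, and Adgre1, which encodes F4/80, was at 799 to 1217 and 663 to 751 CPM. Reads of the disrupted Apoe gene were counted at 26.1 to 112 CPM in advanced and 32.0 to 104 CPM in early libraries, which cannot check the genotype since both groups carry the allele.

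Advanced macrophages differed from early ones in foam cell, matrix-cutting, lysosomal and inflammatory genes that were higher, and in a few resident-macrophage, stromal and monocyte genes that were lower. The count test (edgeR's quasi-likelihood test over 9161 genes with enough reads, Benjamini-Hochberg adjusted p under 0.05, two-sided) called 36 genes higher, 0.393% of those tested, and 13 lower, 0.142%. The median log2 fold change over all tested genes was −0.05. The biological coefficient of variation was 68.6%, and 920 genes had an unadjusted p under 0.05. In plain CPM 48 of the 49 called genes had no overlap between advanced and early libraries; the other, Itgal, met at 45.8 CPM in advanced 3 and 45.6 CPM in early 4. Of the 49 calls, 22 held in all 8 fits that left out 1 library each. Higher and lower calls numbered 21 and 6 without early 2, 22 and 7 without advanced 3, and 28 and 6 without advanced 4. Adding the 4 baseline libraries to the fit raised the coefficient of variation to 110% and left 4 calls, Ctsd, Nr4a3 and Fn1 higher and Filip1l lower. The 8-library fit was chosen with the scatter of the baseline libraries known from earlier results of these data, so the number of calls depends on that choice.

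**Figure D1:**
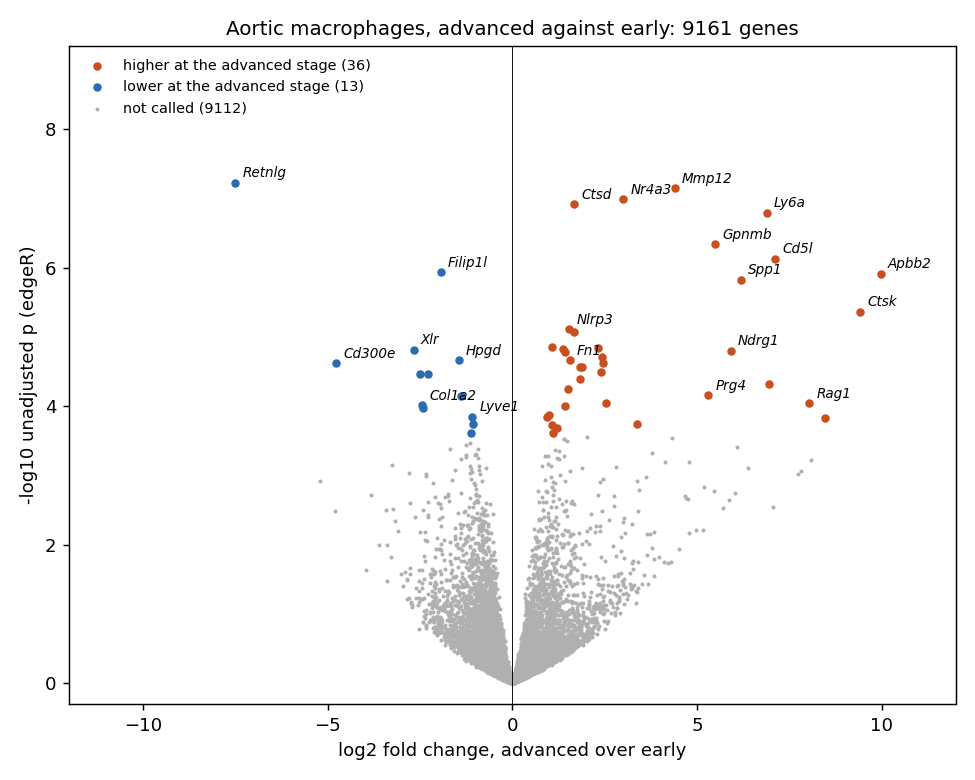
Each point is 1 of the 9161 genes tested in advanced against early aortic macrophages, with the log2 fold change on the x axis and −log10 of the unadjusted edgeR p on the y axis. The 36 orange points were called higher and the 13 blue points lower at an adjusted p under 0.05; grey points were not called.

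Among foam cell genes, 5 rose and others had positive fold changes without a call. Spp1, which encodes the secreted glycoprotein osteopontin, had 641, 2660.0, 4901 and 4231 CPM in advanced libraries 1 to 4, against 27.4, 123, 0.380 and 28.1 CPM in early libraries 1 to 4. Every advanced library lay above every early one, and advanced 1 was the lowest of its group; the log2 fold change was 6.19 ± 0.87 SE, adjusted p = 0.00136. Gpnmb, a membrane glycoprotein of lipid-laden macrophages, had 104, 266, 425 and 258 CPM in advanced libraries, against 12.7, 0, 8.75 and 0.501 CPM in early ones. The groups lay far apart for Gpnmb as well, with a log2 fold change of 5.50 ± 0.71 SE, adjusted p = 0.000694. Both genes kept their calls whichever library was left out.

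Of the 21 genes in the TREM2 foam cell list 20 were tested. In 5 of these all 4 advanced libraries, but not all 4 early ones, reached the cutoff of the filter on low counts (4.83 CPM). Such members are described below as tested only through advanced libraries, and the reverse as only through early ones. The filter accepts any 4 libraries, so this leans a member toward the stage named but does not fix its direction. Over all genes tested, 1738 were of the first kind and 526 of the reverse kind. The number of such members is therefore given with the lists that follow, but some numbers of 0 to 2 are left out. Fold changes were positive in 18 of the 20, with a median of 1.42 on the log2 scale against −0.05 over all genes; 5 rose (Spp1, Gpnmb, Mmp12, Ctsd and Lpl) and 0 fell. In 11 genes all advanced libraries lay above all early ones and in 1 below, where 4.75% and 3.89% of all tested genes did so. The mean of log2(CPM + 1) over the list was 7.33 to 8.31 in advanced libraries, against 5.49 to 6.50 in early libraries. Trem2 itself, named here as the list's namesake with its values known, had 56.8, 96.1, 141 and 124 CPM in advanced libraries, against 30.0, 52.6, 30.4 and 44.1 CPM in early ones. Those groups did not overlap, but the test did not call the gene (log2 fold change 1.41 ± 0.41 SE, adjusted p = 0.161). Lgals3, which encodes the glycan-binding protein galectin-3, just missed the threshold at 1.49 ± 0.33 SE, adjusted p = 0.0547.

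The list was not uniform. Cd36, a scavenger receptor for oxidised lipoproteins, had 626, 1254, 835 and 1074 CPM in advanced libraries, against 1514, 1535, 1910.4 and 1367 CPM in early ones. All advanced values were below all early ones, yet Cd36 was not called (−0.74 ± 0.22 SE, adjusted p = 0.159). Fabp5, a fatty acid carrier, and Atp6v0d2, a proton pump subunit, had estimates of 3.03 ± 0.92 SE, adjusted p = 0.18 and 3.43 ± 0.92 SE, adjusted p = 0.123. Early 1 held 36.1 CPM of Atp6v0d2, more than advanced 1 with 33.5 CPM, while the other early libraries held 0.38 to 4.01 CPM.

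**Figure D2:**
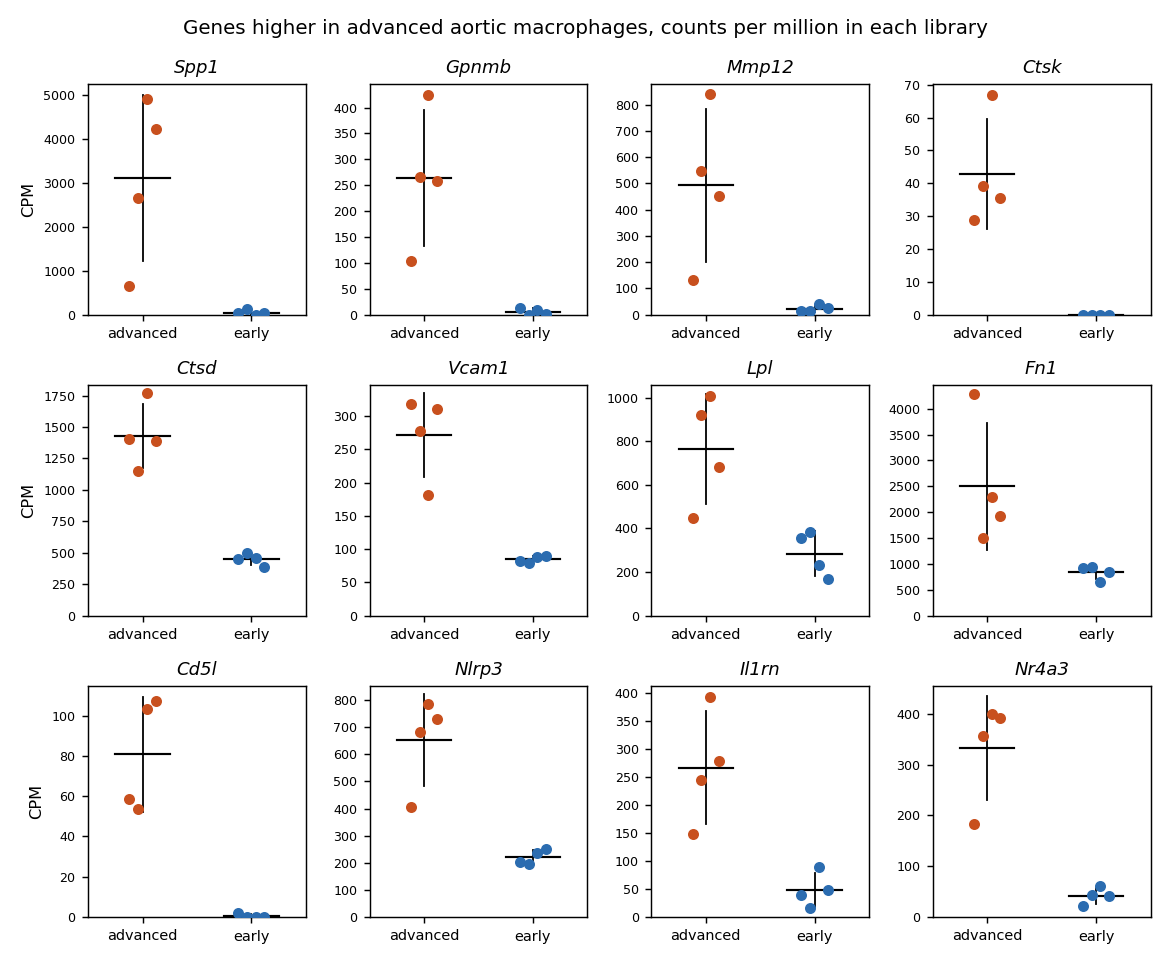
Each panel gives 1 gene that was higher at the advanced stage, in CPM on a linear axis; points are the 4 advanced libraries (orange, left) and the 4 early libraries (blue, right), with the mean as a horizontal line and the SD as a vertical one. Spp1 lies between 641 and 4901 CPM in advanced and between 0.38 and 123 CPM in early libraries, and Ctsk is at 0 in every early library.

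Of 34 lysosomal genes tested, 3 rose. Ctsd, the aspartic protease cathepsin D whose promoter is printed above, had 1402, 1149, 1767 and 1393 CPM in advanced libraries, against 448, 499, 459 and 387 CPM in early ones. The libraries within each stage were close to one another, the stages did not overlap, and the log2 fold change was 1.67 ± 0.20 SE, adjusted p = 0.000276. Ctsk, which encodes the collagen- and elastin-cutting cathepsin K, had 28.9, 39.2, 67.0 and 35.7 CPM in advanced libraries and 0 reads in all 4 early libraries. Against a floor of 3 reads over the early group Ctsk was at least 119-fold higher (adjusted p = 0.00361); it had no reads in the 4 baseline libraries.

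Of these 34 enzymes and membrane proteins 26 had a positive fold change and 8 a negative one (median 0.51 on the log2 scale; 3 were tested only through advanced libraries). Ctsd and Ctsk were among the 3 that rose, 0 fell, and 12 were higher at an unadjusted p under 0.05. Non-overlap was seen in 9 genes, all higher, and the list mean of log2(CPM + 1) was 8.13 to 8.34 in advanced libraries, against 7.41 to 7.65 in early libraries. Ctsz, Grn and Lgmn, which encode cathepsin Z, progranulin and legumain, were among the 9 and had log2 fold changes of 0.92 ± 0.26, 0.59 ± 0.19 and 0.50 ± 0.19, none of them called. Of the 16 genes of the proton pump 15 were tested, 1 of them only through advanced libraries, 12 were positive and 3 did not overlap (median 0.24); edgeR called 0 of them in either direction, with 6 higher at an unadjusted p under 0.05, DESeq2 called 1 higher and limma-voom 2 higher. The 10 genes of both lists with CACGTG in their promoter had a median of 0.68 and ran from −0.19, for Lamp1, to 1.67, for Ctsd; the 27 others with a fold change had a median of 0.46, and this difference was not tested.

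Of the matrix-cutting enzymes, 3 rose. Mmp12, macrophage elastase, had 130.4, 548, 839 and 452 CPM in advanced libraries, against 13.2, 13.7, 39.6 and 25.04 CPM in early ones. The lowest advanced library was above the highest early one, and the log2 fold change was 4.40 ± 0.50 SE, adjusted p = 0.000276. Mmp14, a membrane-bound collagenase that activates MMP2, had 69.9, 69.5, 85.3 and 75.4 CPM in advanced libraries, against 1.02, 10.7, 15.6 and 2.00 CPM in early ones. Its level was even across advanced libraries; the log2 fold change was 3.38 ± 0.71 SE, adjusted p = 0.0368, and the call held in 1 of 8 fits with 1 library left out (it was lost without early 1, early 2, early 4 and each advanced library, adjusted p up to 0.178). Of the 22 proteases and inhibitors of the list 18 were tested, 3 of them only through advanced libraries, and 11 were positive (median 0.24, with Ctsk well above the median at its bound as well); Mmp12, Mmp14 and Ctsk rose and 0 fell. Plau, the urokinase plasminogen activator, was not called at 0.82 ± 0.28 SE, adjusted p = 0.255.

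Fn1, which encodes fibronectin, had 4279, 1496, 2294 and 1935 CPM in advanced libraries, against 922, 948, 647 and 850.0 CPM in early ones. Advanced 1 carried the highest level, all advanced libraries were above all early ones, and the log2 fold change was 1.55 ± 0.27 SE, adjusted p = 0.00907; with early 2 or early 3 left out the call was lost (highest adjusted p 0.0677). Of 12 matrix glycoproteins that macrophages make, 11 were tested, 2 of them only through advanced libraries, 7 were positive and Fn1, Spp1 and Gpnmb rose (median 0.92). Sparc, a collagen-binding protein, had 15.8, 16.8, 9.99 and 12.6 CPM in advanced libraries, against 79.3, 83.9, 50.6 and 33.6 CPM in early ones. It did not overlap and pointed down, but was not called (−2.15 ± 0.56 SE, adjusted p = 0.102). Pdpn, the membrane protein podoplanin, had 328 reads in all advanced libraries together and 2 in all early ones, a ratio of 160 with a 95% counting interval of 44 to 1329 and an adjusted p of 0.0142. Nt5e, the enzyme that makes adenosine from AMP, had 187 and 0 reads, at least 60.9-fold higher (adjusted p = 0.0316). Calls were lost for Pdpn without early 2, advanced 3 or advanced 4 (up to 0.2), and for Nt5e without early 2, early 3 or any 1 advanced library (up to 0.178).

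Genes of lipid and cholesterol handling gave few calls. Lpl, the lipase that frees fatty acids from triglyceride-rich lipoproteins, had 446, 919.8, 1008 and 681 CPM in advanced libraries, against 356, 386, 233 and 166 CPM in early ones. The stages did not overlap and the log2 fold change was 1.43 ± 0.29 SE, adjusted p = 0.0239, a call kept in 3 of 8 fits (with advanced 1, advanced 4 or early 1 left out; otherwise the adjusted p reached 0.113). Of 22 genes of lipid storage and fatty acid handling 19 were tested, 4 of them only through advanced libraries, 14 were positive and Lpl alone was called (median 0.28). Plin2, the coat protein of lipid droplets, had 622, 436, 556 and 637 CPM in advanced libraries, against 325, 434, 406 and 366 CPM in early ones. These values did not overlap, but the difference was small and not called (0.55 ± 0.21 SE, adjusted p = 0.322). In the lists of LXR targets (12 of 14 tested, 2 only through advanced libraries, 8 positive, median 0.43) and SREBP2 targets (12 of 22 tested, 1 only through advanced libraries, 8 positive, median 0.49) edgeR, DESeq2 and limma-voom each called 0 genes in either direction, with 1 LXR target and 0 SREBP2 targets at an unadjusted edgeR p under 0.05. Abcg1, which moves cholesterol to lipoprotein particles, was at 0.54 ± 0.32 SE, adjusted p = 0.636.

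**Figure D3:**
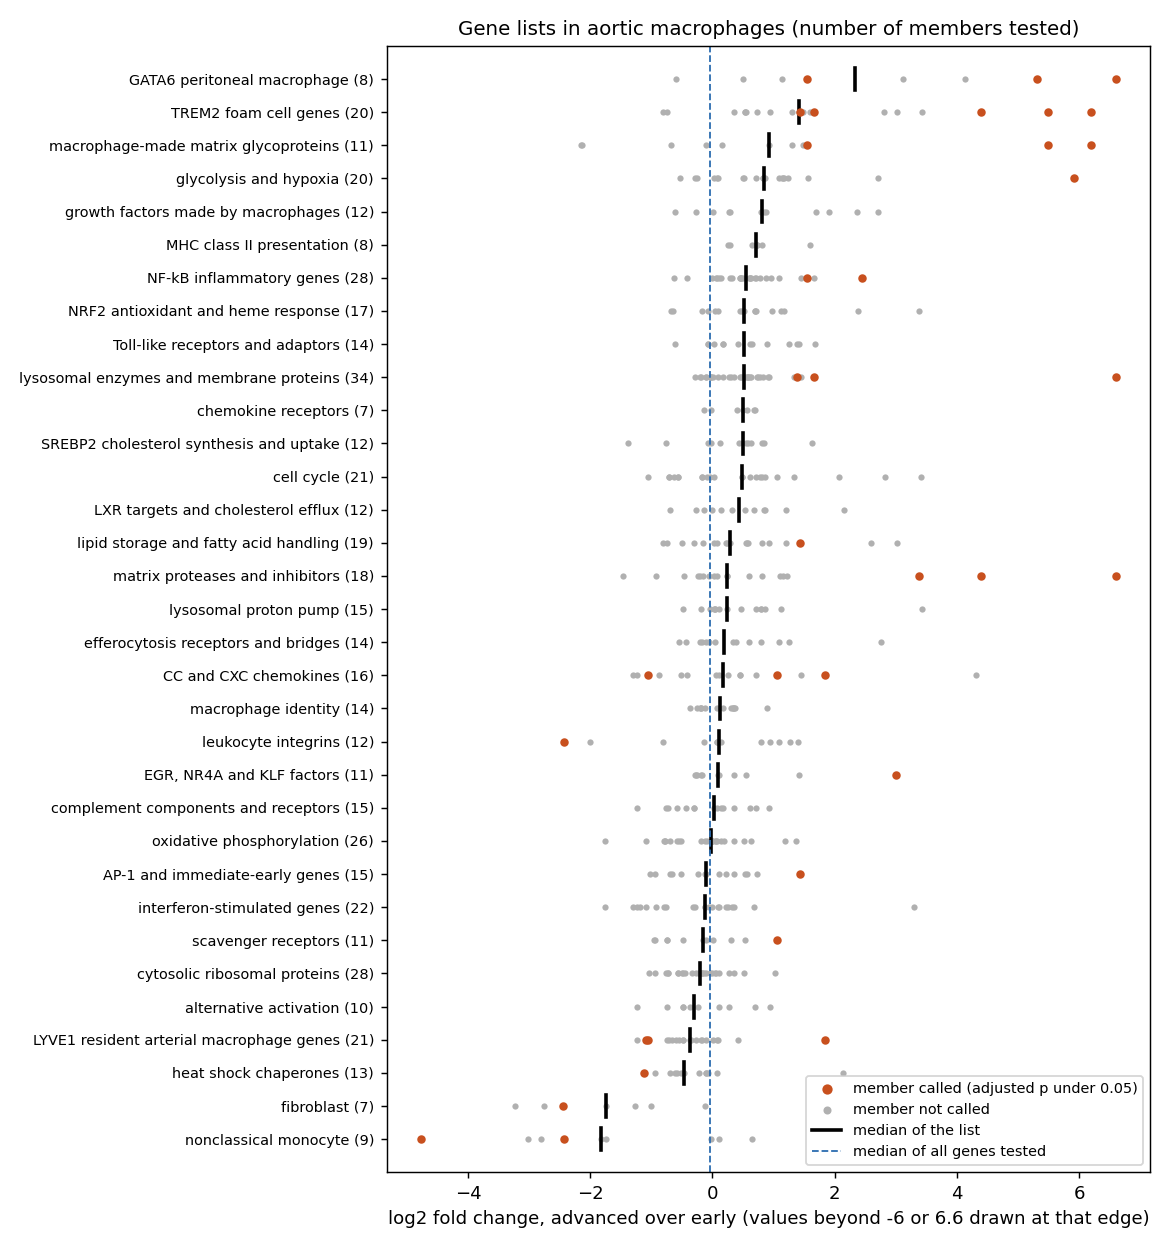
Each row is a gene list with at least 7 members tested (their number in parentheses), each point a member and the x axis its log2 fold change, advanced over early; orange points were called at an adjusted p under 0.05, the black bar is the list's median and the dashed line the median of all tested genes. The lists of peritoneal-type and foam cell genes have the highest medians, 2.33 and 1.42, and the nonclassical monocyte and fibroblast lists the lowest, −1.82 and −1.74. Members tested only through advanced libraries, which leans them upward, were 5 of 8 peritoneal-type and 5 of 20 foam cell genes. Members tested only through early libraries were 1 of 9 nonclassical monocyte and 2 of 7 fibroblast genes.

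Inflammatory genes had mostly positive fold changes, and a pair of them rose. Nlrp3, the sensor of the inflammasome that activates IL-1β, had 405, 683, 786 and 732 CPM in advanced libraries, against 203, 194, 236 and 251 CPM in early ones. The stages were apart in every library, with a log2 fold change of 1.54 ± 0.25 SE, adjusted p = 0.0059. Il1rn, the antagonist of the IL-1 receptor, had 149, 245, 394 and 278 CPM in advanced libraries, against 39.6, 15.2, 88.6 and 47.6 CPM in early ones, and rose by 2.46 ± 0.43 SE, adjusted p = 0.00916. Il1b, the cytokine itself, had 758, 739, 685 and 623 CPM in advanced libraries, against 510.2, 353, 255 and 307 CPM in early ones. Its libraries did not overlap either, but the call was missed at 0.96 ± 0.23 SE, adjusted p = 0.0807.

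Of 30 NF-kB-linked genes 28 were tested, 4 of them only through advanced libraries, and 25 had positive fold changes (median 0.55); Nlrp3 and Il1rn rose and 0 fell, and 6 did not overlap, all of them higher. The list mean of log2(CPM + 1) was 7.22 to 7.96 in advanced libraries, against 6.45 to 7.26 in early libraries, so the ranges of the stages touched. Among 14 Toll-like receptor genes, 3 of them tested only through advanced libraries, 11 were positive and 4 did not overlap; edgeR called 0 in either direction, with 3 at an unadjusted p under 0.05, and DESeq2 and limma-voom 1 higher each. Cd14, the co-receptor for bacterial lipopolysaccharide, was the nearest at 0.90 ± 0.21 SE, adjusted p = 0.0711. MHC class II genes were all positive in the 8 of 10 tested (1 only through advanced libraries, median 0.72), with 3 at an unadjusted p under 0.05 and 0 called by edgeR, 1 by DESeq2 and 2 by limma-voom; Cd74, the invariant chain, stood at 0.81 ± 0.20 SE, adjusted p = 0.0823. Interferon-stimulated genes were split, with 8 of 22 positive and a median of −0.12, although 5 were tested only through advanced libraries; edgeR called 0 in either direction, with 1 higher and 4 lower at an unadjusted p under 0.05, DESeq2 called 2 lower and limma-voom 1 lower.

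Several single genes outside these lists rose as well. Vcam1, an adhesion molecule for integrin-bearing leukocytes, had 318, 277, 181 and 309.9 CPM in advanced libraries, against 81.8, 79.3, 88.3 and 89.2 CPM in early ones (1.66 ± 0.27 SE, adjusted p = 0.00598). C6, a component of the complement attack complex, had 172, 103, 117 and 100.5 CPM in advanced libraries, against 29.5, 16.0, 30.8 and 14.0 CPM in early ones (2.43 ± 0.42 SE, adjusted p = 0.00888). Neither gene overlapped between stages, and both calls held without any 1 library. Mpeg1, the pore-forming protein perforin-2 of phagocytes, was already abundant and rose by 1.09 ± 0.18 SE, adjusted p = 0.00805. Ly6a, the surface antigen Sca-1, had 69.9, 45.3, 72.4 and 79.4 CPM in advanced libraries, against 0.508, 0.762, 0.761 and 0 CPM in early ones, with 4 reads in the early group as a whole (6.89 ± 0.82 SE, adjusted p = 0.000294). Apbb2, an adaptor protein that binds the amyloid precursor protein, had 13.04, 98.0, 74.5 and 66.0 CPM in advanced libraries and 0 reads in the early ones, at least 184-fold higher (adjusted p = 0.00124). Tnfaip2, Cd72, Cpd, Slc15a3, Sgk1, Clic4, Gna13, Skil and Sdcbp also rose, with log2 fold changes of 0.95, for Sdcbp, to 2.39, for Cd72; of these Tnfaip2 kept its call without any 1 library, Cpd lost it without early 2, Slc15a3 without early 2 or advanced 3, Cd72 without early 3 or advanced 3, and Sgk1, Skil, Sdcbp, Clic4 and Gna13 kept it in 1 to 3 of 8 such fits (adjusted p up to 0.2).

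Rag1, the recombinase of developing lymphocytes, was called on uneven values. It had 7.45, 5.60, 315 and 6.89 CPM in advanced libraries, against 0, 0, 0 and 1.00 CPM in early ones, so 1 library held nearly all of the 794 reads of the advanced group. Without advanced 3 the log2 fold change was 4.32 in place of 8.04 and the adjusted p was 0.776; the call was also lost without any 1 early library. The early group had 2 reads. In the chow-fed baseline libraries 1 to 4, which were not in the fit, Rag1 was at 0, 274, 177 and 0 CPM. Its baseline mean of 113 CPM was above the advanced mean of 83.7 CPM, so high values in single libraries were not limited to the advanced stage. Cd3e of T cells was also highest in advanced 3, at 24.1 CPM against 0 to 1.22 CPM in the other advanced libraries. Cd79a of B cells was at 0 to 2.33 CPM in advanced and 0 to 2.03 CPM in early libraries. The whole list of T and NK cell markers summed to 133, 30.3, 201 and 42.9 CPM in advanced libraries 1 to 4, against 8.01 to 70.4 CPM in early ones. The B cell list summed to 39.1, 17.3, 4.99 and 14.6 CPM in advanced libraries, against 0 to 59.6 CPM in early ones. The part of lymphocytes in the Rag1 values was not tested.

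Among transcription factors of rapid responses, Nr4a3 and Fosl2 rose. Nr4a3, an orphan nuclear receptor of the immediate-early class, had 183, 357, 399 and 392 CPM in advanced libraries, against 21.3, 42.7, 60.5 and 41.6 CPM in early ones. The stages were well separated with a log2 fold change of 3.00 ± 0.35 SE, adjusted p = 0.000276, a call that held in every alternative fit. Its relative Nr4a2 was not called at 0.55 ± 0.50 SE, adjusted p = 0.83, and of 11 EGR, NR4A and KLF factors 6 were positive, Nr4a3 rose and 0 fell (median 0.10). Fosl2, an AP-1 subunit, had 588, 552, 556 and 642 CPM in advanced libraries, against 231, 131, 259 and 229 CPM in early ones (1.43 ± 0.24 SE, adjusted p = 0.00805). Jun, its common partner, had 2245, 2429, 1175 and 2157 CPM in advanced libraries, against 5749.5, 3912, 3204 and 3150.1 CPM in early ones. Jun thus lay lower in every advanced library than in any early one, without passing the test (−1.01 ± 0.24 SE, adjusted p = 0.0711). Of 15 AP-1 and immediate-early genes tested 7 were positive, Fosl2 rose and 0 fell (median −0.10).

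Heat shock chaperones had negative fold changes in 11 of 13 tested and a median of −0.46. Hspa1a, an inducible HSP70, had 601, 1037, 541 and 995 CPM in advanced libraries, against 1552, 1862, 1343 and 2029 CPM in early ones. It fell (−1.12 ± 0.24 SE, adjusted p = 0.046), but reads could be split with its near-identical neighbour Hspa1b, which was not called (−0.94 ± 0.26 SE, adjusted p = 0.143), and the call held in 1 of 8 fits (the exception being the fit without advanced 2; adjusted p up to 0.2) and was lost with Rn45s left out of the totals. Cytosolic ribosomal protein genes were negative in 21 of 28 tested (median −0.21), with 9 without overlap, all lower; edgeR called 0 in either direction, with 9 lower at an unadjusted p under 0.05, DESeq2 called 4 lower and limma-voom 2 lower. Ndrg1, a stress-response gene that responds to low oxygen, had 17.7, 55.5, 134 and 97.6 CPM in advanced libraries, against 1.02, 0, 0 and 3.51 CPM in early ones. It rose (5.92 ± 1.00 SE, adjusted p = 0.00805), a call lost without advanced 3 (adjusted p = 0.061), and it was the 1 call among 20 tested genes of glycolysis and hypoxia, 18 of which were positive (median 0.84; 7 were tested only through their advanced libraries). Hk2, hexokinase 2, was the nearest of the others at 1.56 ± 0.39 SE, adjusted p = 0.0873.

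Resident arterial macrophage genes had mostly negative fold changes, and a pair of them fell. Lyve1 had 1062, 708, 635 and 887 CPM in advanced libraries, against 1131, 1845, 1964 and 1986 CPM in early ones. Early 1 came close to advanced 1, and the other 3 early libraries lay well above; the log2 fold change was −1.09 ± 0.23 SE, adjusted p = 0.031. Pf4, the chemokine CXCL4, had 190.1, 281, 221 and 307 CPM in advanced libraries, against 531, 634, 518 and 406 CPM in early ones (−1.06 ± 0.22 SE, adjusted p = 0.0368). Its stages did not overlap. Both calls were fragile: Lyve1 kept it in 2 of 8 fits, those lacking early 1 or advanced 1 (highest adjusted p 0.165), and Pf4 in 1, that without early 4 (up to 0.2).

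Of 21 genes in the list of LYVE1 resident macrophages, 16 had negative fold changes (median −0.36), 6 were below early libraries without overlap and 1 above; Lyve1 and Pf4 fell and Ccl8 rose. The list mean of log2(CPM + 1) was 8.09 to 8.31 in advanced libraries, against 8.18 to 8.83 in early libraries. F13a1, the coagulation factor XIII A chain, did not overlap at −0.59 ± 0.17 SE, adjusted p = 0.144 and was not called, and Folr2, a folate receptor, was at −0.18 ± 0.28 SE, adjusted p = 0.926. Mrc1, the mannose receptor, and Cd163, the haemoglobin receptor, were at −0.47 ± 0.18 and −0.74 ± 0.25, with overlap and no call. Ccl8, a chemokine for monocytes and T cells, had 544, 573, 971 and 634 CPM in advanced libraries, against 336, 118, 211 and 94.2 CPM in early ones. It rose opposite to the list (1.84 ± 0.34 SE, adjusted p = 0.0125), a call lost in the fits lacking early 2 or early 3 (highest adjusted p 0.0727). Hpgd, which inactivates prostaglandins, had 207, 327, 140.2 and 250.0 CPM in advanced libraries, against 639, 640.4, 563 and 659 CPM in early ones, and fell by 1.45 on the log2 scale (adjusted p = 0.00907) in every fit that left out 1 library.

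Further genes fell outside the lists. Xlr, a nuclear protein of a family of similar X-linked genes among which reads could be split, had 14.0, 36.9, 18.3 and 25.1 CPM in advanced libraries, against 128, 114, 94.3 and 250.4 CPM in early ones. The stages did not overlap (−2.67 ± 0.45 SE, adjusted p = 0.00805), and the call held without any 1 library. Ubxn1, a cofactor of the unfolding ATPase p97, had 14.9, 15.9, 17.5 and 16.6 CPM in advanced libraries, against 65.6, 124, 92.1 and 86.2 CPM in early ones (−2.50 ± 0.45 SE, adjusted p = 0.0106; lost without early 2, advanced 2, advanced 3 or advanced 4, up to 0.0602). Stk10, a kinase of proteins that tie the membrane to actin, had 124, 117, 87.4 and 95.2 CPM in advanced libraries, against 196, 410.1, 275 and 237 CPM in early ones (−1.40 ± 0.27 SE, adjusted p = 0.0193; lost without early 2, early 3, advanced 2, advanced 3 or advanced 4, up to 0.127). Neither gene overlapped between stages.

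Chemokines otherwise moved singly: of 23, 16 were tested, Ccl8 and Cxcl16 rose and Pf4 fell. Cxcl16, a membrane-bound chemokine that also binds oxidised lipoproteins, had 339, 437, 399 and 474 CPM in advanced libraries, against 181, 227, 171 and 205 CPM in early ones (1.06 ± 0.23 SE, adjusted p = 0.0368). Its stages did not overlap; the call was kept in the fits lacking early 4 or advanced 1 and lost in the other 6 (highest adjusted p 0.201). Cxcl13, which attracts B cells, had 303, 212, 57.0 and 25.9 CPM in advanced libraries, against 17.8, 0, 10.7 and 0 CPM in early ones. Its advanced values were scattered and it just missed the threshold (4.32 ± 0.96 SE, adjusted p = 0.0512).

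**Figure D4:**
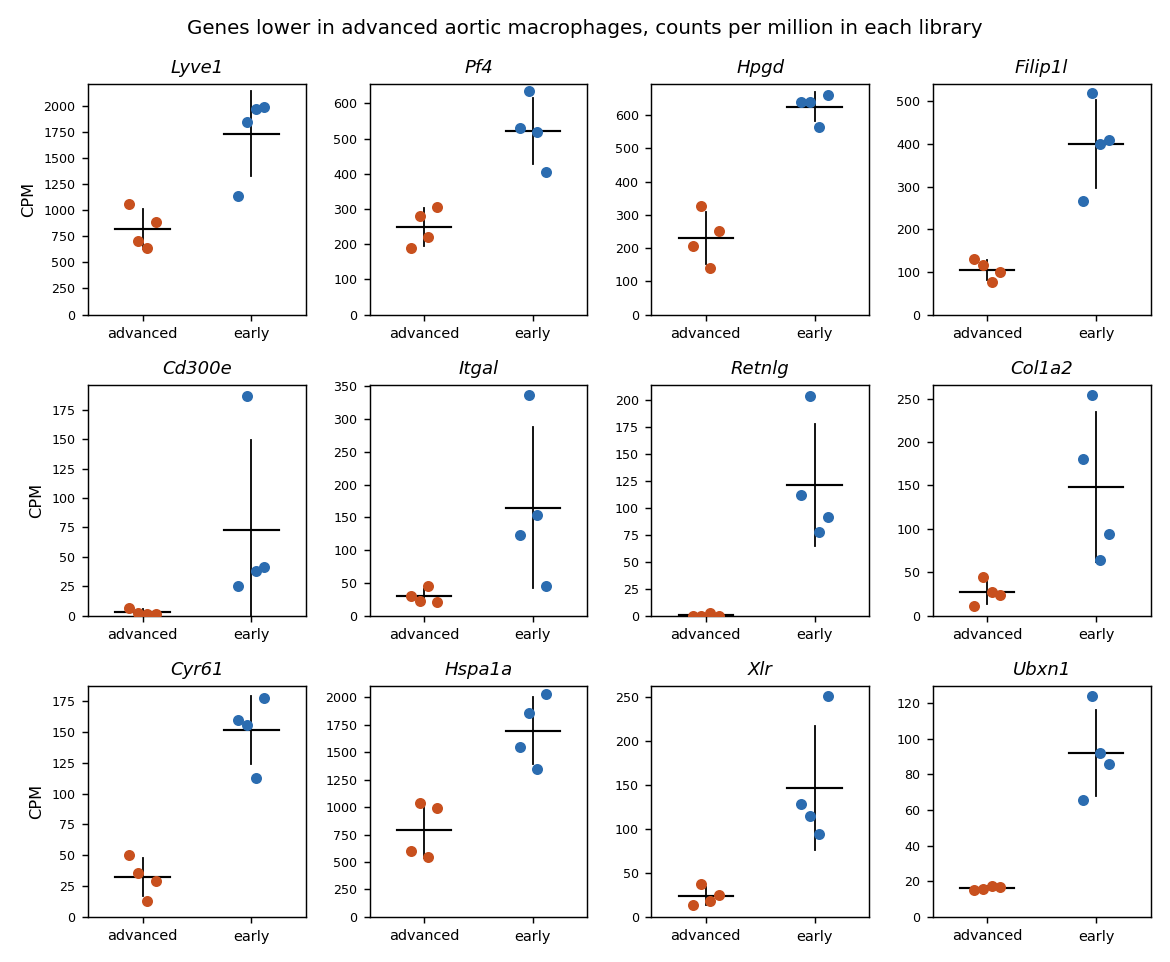
Each panel gives 1 gene that was lower at the advanced stage, in CPM on a linear axis from 0; points are the 4 advanced libraries (orange, left) and the 4 early libraries (blue, right), with the mean as a horizontal line and the SD as a vertical one. Lyve1 lies between 635 and 1062 CPM in advanced and between 1131 and 1986 CPM in early libraries, and the 4 highest values of Itgal include 1 advanced library at 45.8 CPM beside 3 early ones.

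Some of the calls belong to marker lists of other cells, and in each case the whole list is given. Fibroblast markers were negative in 7 of 7 (median −1.74), although 2 were tested only through early libraries; 5 were lower at an unadjusted p under 0.05, DESeq2 called 3 lower and limma-voom 4 lower. Col1a2, a collagen I chain, had 11.2, 44.3, 27.5 and 23.9 CPM in advanced libraries, against 181, 254, 64.3 and 94.2 CPM in early ones. Col1a2 fell (−2.44 ± 0.49 SE, adjusted p = 0.0237; kept in 3 of 8 fits, and lost when early 1, early 2, advanced 1, advanced 3 or advanced 4 was left out, with p of up to 0.113). Col3a1, Col1a1 and Dpt, further matrix genes of the list, were not called by edgeR, with log2 fold changes of −1.74 ± 0.48, −2.76 ± 0.78 and −3.23 ± 0.94. The summed level of the 7 fibroblast markers was 140.2 to 379 CPM in advanced and 510.1 to 1058 CPM in early libraries. Cyr61, a secreted matricellular protein of stromal and other cells, had 50.3, 35.9, 12.9 and 29.2 CPM in advanced libraries, against 160.1, 156, 113 and 178 CPM in early ones (−2.28 ± 0.41 SE, adjusted p = 0.0106), and Filip1l, a filamin A-interacting protein, had 129.5, 115, 75.3 and 101 CPM in advanced libraries, against 267, 519, 400.2 and 410.2 CPM in early ones (−1.93 ± 0.27 SE, adjusted p = 0.00124). The part of fibroblast RNA in these values was not tested. Smooth muscle markers summed to 20.5 to 75.1 CPM in advanced and 9.02 to 265 CPM in early libraries and endothelial ones to 25.9 to 36.3 CPM in advanced and 3.51 to 52.1 CPM in early libraries, with 3 of 7 and 2 of 8 tested; edgeR, DESeq2 and limma-voom called 0 of these in either direction, and 1 smooth muscle gene was lower at an unadjusted p under 0.05.

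Markers of nonclassical monocytes, the patrolling cells of the blood, were negative in 7 of 9 tested (median −1.82; 1 was tested only through early libraries), and their sum was 777 to 1002 CPM in advanced and 664 to 2909 CPM in early libraries. At an unadjusted p under 0.05, 6 of the 9 were lower, and edgeR called 2 lower, DESeq2 6 and limma-voom 5. Cd300e, an activating receptor of these cells, had 6.52, 1.87, 1.25 and 1.62 CPM in advanced libraries, against 25.4, 187, 38.0 and 41.6 CPM in early ones. It fell (−4.76 ± 0.84 SE, adjusted p = 0.00916), but early 2 held most of it, and without early 2 the adjusted p was 0.134. Itgal, the LFA-1 integrin chain, also peaked in early 2, with 29.8, 22.4, 45.8 and 20.7 CPM in advanced libraries, against 123, 336, 154 and 45.6 CPM in early ones (−2.42 ± 0.49 SE, adjusted p = 0.025; kept in 3 of 8 fits, and lost without early 2, early 3, advanced 1, advanced 2 or advanced 4, up to 0.134). Ace, the angiotensin-converting enzyme, had 80.1, 7.93, 9.99 and 11.7 CPM in advanced libraries, against 128, 452, 79.9 and 83.1 CPM in early ones. Advanced 1 reached the level of early 3, early 2 was the highest, and Ace was not called (−2.80 ± 0.70 SE, adjusted p = 0.089). Spn, the sialoglycoprotein CD43, did not overlap and was not called either (−1.74 ± 0.48 SE, adjusted p = 0.132). Cx3cr1, the fractalkine receptor, was at −0.02 ± 0.33 SE, adjusted p = 0.995 and Nr4a1, the factor these monocytes need, at 0.10 ± 0.30 SE, adjusted p = 0.97. The part of such monocytes in these values was not tested.

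Retnlg, a resistin-like secreted protein known from neutrophils and bone marrow, had 0, 0, 2.08 and 0 CPM in advanced libraries, against 112, 204, 77.6 and 91.7 CPM in early ones. It was all but missing at the advanced stage, with a log2 fold change of −7.50 ± 0.84 SE, adjusted p = 0.000276, and it kept its call without any 1 library. The neutrophil genes S100a8 and S100a9 stood at 0 to 1.40 and 0 CPM in advanced libraries and at 0 and 0 to 0.762 CPM in early ones, and Elane, Ngp and Cxcr2 had no reads in any of the 8. Of the 9 neutrophil markers in the files 6 had reads and only Retnlg and Csf3r were tested, and Csf3r was at 0.20 ± 0.43 SE, adjusted p = 0.955. The whole list, Retnlg included, summed to 56.7 to 168 CPM in advanced and 122 to 333 CPM in early libraries. The part of neutrophils in these values was not tested.

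Markers of GATA6 peritoneal macrophages were positive in 7 of 8 tested (median 2.33, with 5 of the 8 tested only through their advanced libraries), and 5 did not overlap, all higher. Cd5l, a secreted scavenger-domain protein also made by tissue macrophages under LXR control, had 58.7, 53.7, 104 and 107 CPM in advanced libraries, against 2.03, 0, 0 and 0 CPM in early ones. Its 4 early reads all came from early 1, and the log2 fold change was 7.12 ± 0.95 SE, adjusted p = 0.000975. Prg4, the lubricating glycoprotein lubricin, had 244, 100.3, 36.6 and 71.7 CPM in advanced libraries, against 1.02, 12.2, 0 and 0 CPM in early ones. It rose by 5.31 ± 1.03 SE, adjusted p = 0.0191, with the highest level in advanced 1. The call was lost when advanced 1, early 1 or early 3 was left out (highest adjusted p 0.145), and it was also lost with limma-voom. Fn1 is the third called member. Gata6 itself, the factor that defines these cells, was at 0 to 4.20 CPM in advanced and 0 to 8.52 CPM in early libraries, too low to be tested. The list summed to 1879 to 4929.8 CPM in advanced and 809 to 1052 CPM in early libraries, of which Fn1 is most; whether peritoneal-type cells contribute to these values was not tested.

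Other programs of macrophages gave 1 call among them. Growth factors had a median of 0.82 with 10 of 12 tested positive, but 7 of the 12 were tested only through their advanced libraries and edgeR called 0 (4 at an unadjusted p under 0.05; DESeq2 and limma-voom called 1 each). Antioxidant and heme genes under NRF2 were positive in 13 of 17 (median 0.52; 2 were tested only through advanced and 1 only through early libraries); edgeR called 0, with 6 at an unadjusted p under 0.05, and DESeq2 and limma-voom called 2 each. Slc7a11, the cystine importer, had 53.1, 28.0, 54.5 and 20.7 CPM in advanced libraries, against 7.62, 3.05, 3.04 and 1.00 CPM in early ones. It did not overlap and was not called (3.38 ± 0.88 SE, adjusted p = 0.101). Efferocytosis genes, by which dying cells are taken up, were positive in 8 of 14 (median 0.19; 1 tested only through advanced libraries); edgeR called 0, with 5 at an unadjusted p under 0.05, DESeq2 called 3 and limma-voom 2. Axl, a receptor tyrosine kinase of that process, was the nearest at 1.26 ± 0.29 SE, adjusted p = 0.0665. Complement genes split 8 to 7 (median 0.02) and alternative activation genes 4 to 6 (median −0.30), and edgeR called 0 of either list. The complement list does not hold C6, a complement component that rose. At an unadjusted p under 0.05 there were 3 higher and 1 lower genes of the complement list, and 1 higher and 4 lower alternative activation genes. DESeq2 called 1 higher and 1 lower complement gene and 2 higher alternative activation genes, and limma-voom 1 higher and 1 lower complement gene and 1 lower alternative activation gene. Among 12 integrins tested Itgal alone was called, and Itga6, the laminin receptor chain, missed the threshold at 1.40 ± 0.31 SE, adjusted p = 0.0518. Cell cycle genes were positive in 12 of 21 tested (median 0.48), but 7 of the 21 were tested only through advanced libraries and 1 only through early ones. Mki67, a marker of dividing cells, was at 1.05 ± 0.37 SE, adjusted p = 0.266; edgeR and limma-voom called 0, DESeq2 2 higher, and 3 were higher at an unadjusted p under 0.05. Oxidative phosphorylation genes stayed at a median of −0.02, with 10 of 26 positive, 0 at an unadjusted p under 0.05 and 0 called by edgeR, DESeq2 or limma-voom.

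Chow-fed baseline aortas give the level before the diet, as a description since they were not in the fit. Of the 36 genes that rose, 21 had a baseline mean above the early mean and 3 a baseline mean above the advanced mean as well. Fn1 was at 5715, 3361, 3679 and 3783 CPM in the baseline libraries and Lpl at 1316, 828, 719 and 1171 CPM, so that for both the early stage was the lowest of the 3. Spp1, in contrast, was at 0, 24.6, 0 and 1.07 CPM and Gpnmb at 0 in all 4 baseline libraries. All 13 genes that fell had a baseline mean below the early mean, and in 3 it was also below the advanced mean. Genes that rose were picked in part for low early values, and genes that fell for high ones. Both counts against the early mean are therefore partly built in by that choice. The share over all genes tested was not computed, so no conclusion is drawn from them.

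Monocytes and peritoneal macrophages of mice at the same stages show whether the aortic differences were shared outside the artery wall. They were fitted on their own libraries, 4 against 4 in each. Monocytes gave 154 calls among 8859 genes (1.74%), 52 higher and 102 lower, with a coefficient of variation of 18.3%, and peritoneal macrophages 24 among 9022 (0.266%), 10 higher and 14 lower, at 24.2%. Of the 49 aortic calls 31 were tested in monocytes and 4 were called there, which is 12.9% of those tested, 8.16% of the aortic list and 2.6% of the monocyte calls. Clec4d, a C-type lectin receptor, rose by 1.15 ± 0.26 in monocytes beside 2.53 ± 0.50 in the aorta, where the call was lost without early 3, early 4, advanced 1, advanced 3 or advanced 4 (highest adjusted p 0.119), and Mmp14 by 1.77 ± 0.38 beside 3.38 ± 0.71. Hspa1a fell in monocytes, by 1.95 on the log2 scale beside a fall of 1.12 in the aorta. Retnlg went the other way, with a log2 fold change of 4.28 ± 0.51 in monocytes (adjusted p = 0.00303) beside −7.50 ± 0.84 in the aorta. In the peritoneum 28 of the 49 were tested and edgeR called 0, with 3 higher and 6 lower at an unadjusted p under 0.05; DESeq2 called 1 higher and 3 lower.

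The test of the difference in response itself (limma-voom with 1 weight per population, over 10642 genes) called 4 genes between aorta and monocytes (0.0376%), all more positive in the aorta. C6 differed by 4.01 ± 0.59 (adjusted p = 0.00306) and Vcam1 by 2.69 ± 0.48 (0.0241); the others were Anpep, a membrane aminopeptidase, at 5.56 ± 0.99 (0.0241), and Slc41a2, a magnesium transporter, at 4.50 ± 0.84 (0.0298). The aortic test called neither Anpep (2.81 ± 0.69 SE, adjusted p = 0.0836) nor Slc41a2 (2.03 ± 0.45, adjusted p = 0.0512). When tried on simulated data, this test called more genes without a difference than its threshold allows, so its few calls are less certain than those of the count test. The number of calls was 1 to 43 when 1 aortic library was left out, with 43 without advanced 1. Between aorta and peritoneum limma-voom called 0 genes (0%), with 1358 at an unadjusted p under 0.05 and 17 called without advanced 1. For Spp1, Gpnmb, Mmp12 and Ctsd the differences from monocytes were 6.10, 3.93, 5.36 and 1.5 on the log2 scale and were not called. A change particular to the aorta was therefore not shown for these genes by this test. Spp1, Gpnmb and Mmp12 did not pass the filter on low counts in monocytes alone, so their differences rest in part on few monocyte reads. Monocyte means were 3.74 CPM advanced and 1.35 CPM early for Spp1, and 6.10 and 0.945 CPM for Gpnmb.

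**Figure D5:**
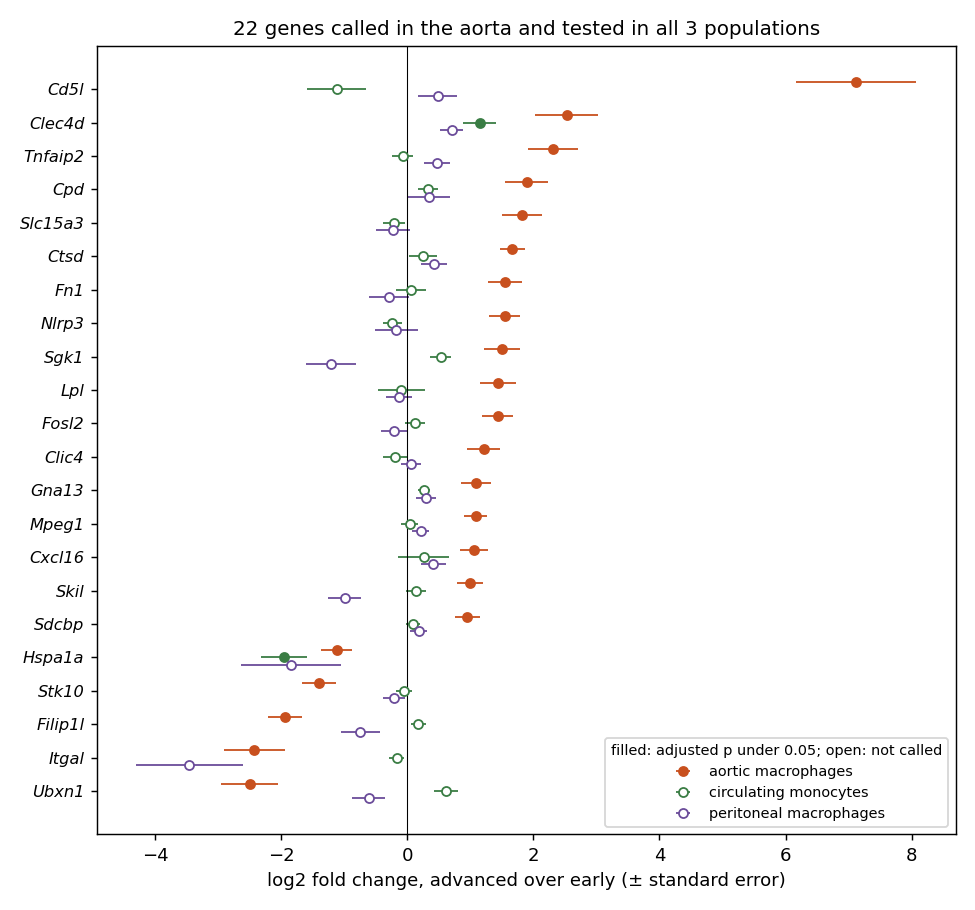
For 22 genes called in the aorta and tested in all 3 populations, points give the log2 fold change of advanced over early on the x axis, with the standard error as a bar, for aortic macrophages (orange), monocytes (green) and peritoneal macrophages (purple). Filled points were called in their own population; among those drawn only Clec4d and Hspa1a have a second filled point.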

How the data were processed

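Per the labels' protocols, RNA of flow-sorted cells went through a low-input kit (Ovation SoLo) and paired-end sequencing (NextSeq500); the molecule is given as polyA RNA. The deposited files hold the authors' raw read counts per gene, 1 file per library, with 24421 genes in each. The submitters' processing notes name STAR, featureCounts and mm10. Versions, settings and strand use are not given in the sources used here, so reads of overlapping and antisense genes cannot be told apart. Symbols matched RefSeq (GRCm38.p6) for 23204 genes, or 24313 with synonyms.

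Groups were taken from the sample titles. Advanced and early were compared in the 8 aortic libraries by quasi-likelihood testing in edgeR 4.0.16 under R 4.3.3, with TMM normalisation, genes kept by filterByExpr (minimum count 10, here 4.83 CPM) and Benjamini-Hochberg adjustment over 9161 genes, two-sided. Baseline libraries stayed out of the fit because earlier results of these data showed them deeper and more scattered; a fit of all 12 is among the alternatives. SE was obtained by dividing the size of the log2 fold change by the root of the F statistic. CPM in the text is the count scaled to the library's total, Rn45s included. Overlap between groups was judged on TMM-scaled CPM. Fold bounds use a floor of 3 reads over a group; bounds and intervals cover counting error only. Differences in response were tested with limma-voom (limma 3.58.1) on 24 libraries with 1 quality weight per population. Alternatives were RLE factors, DESeq2 (1.42.0), no filter, weighted limma-voom, thinned counts, a replicate block, all 12 aortic libraries, Rn45s left out and each library left out. The tests were tried on simulated data; the test of differences in response made more false calls there than its threshold allows.

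Named genes were the 12 higher and 12 lower with the largest changes among called genes without overlap and at a mean of 20 CPM or more in the higher group, every called member and up to 4 members by p of each list, and Ctsd, Fn1, Nr4a3, Filip1l and Apoe; other names were chosen with their values seen. The text leaves out many uncalled list members that this rule picks, which stand only in their list's counts, and 1 called gene. The comparison and the gene lists were chosen with earlier results of these data known. Whether replicates are separate mice is not in the labels; p-values therefore describe the spread between these libraries, which may be technical. No files were identical.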

Additional observations from a re-analysis of the deposited data

Results flagged for a closer look

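In 23 of 266 groups of 4 libraries looked at (8.65%) 1 library stood apart from the other 3 by Dixon's criterion. Chance gives this in about 5% for normally distributed values, which CPM are not. A group with 0 in 3 libraries and any reads in the other meets the criterion by construction, so the 8.65% cannot be set against the 5%. Among genes that rose, these were Rag1 in advanced 3 at 315 CPM, against 5.60 to 7.45 CPM in the other advanced libraries, and Rag1 in early 4 at 1.00 CPM, against 0. Nt5e was at 14.0 CPM in advanced 1, against 23.9 to 24.97 CPM. In early libraries, Cd5l was at 2.03 CPM in early 1 and Pdpn at 0.761 CPM in early 3, each against 0, Prg4 at 12.2 CPM in early 2, against 0 to 1.02 CPM, and Sdcbp at 537 CPM in early 4, against 871 to 917 CPM.

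Among genes that fell, Retnlg was at 2.08 CPM in advanced 3, against 0 in the others. Cd300e was at 6.52 CPM in advanced 1, against 1.25 to 1.87 CPM, and at 187 CPM in early 2, against 25.4 to 41.6 CPM. Lyve1 was at 1131 CPM in early 1, against 1845 to 1986 CPM.

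Among genes without a call, advanced libraries stood apart for Ccl24 (55.1 CPM in advanced 2), C4b (1360.3 CPM in advanced 1), Osm (74.5 CPM in advanced 1), Lgals3 (509 CPM in advanced 3), Ftl1 (860.1 CPM in advanced 2) and Cox5a (72.7 CPM in advanced 1). Early libraries stood apart for Axl (144 CPM in early 4), Lrp1 (1246 CPM in early 2), Soat1 (205 CPM in early 2), Atp6v0d2 (36.1 CPM in early 1), H2-Eb1 (1215 CPM in early 1) and H2-DMa (15.0 CPM in early 4).

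The response of 2 aortic calls differed from that of monocytes by limma-voom's test of the difference: C6 by 4.01 and Vcam1 by 2.69 on the log2 scale, with adjusted p of 0.00306 and 0.0241. On simulated data that test made more false calls than its threshold allows. C6 had too few reads in monocytes to be tested in the fit of monocytes alone.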

How the results depend on the processing

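The aortic comparison gave 36 genes higher and 13 lower, and 49 of these 49 kept their direction in all fits that tested them. All 49 were without overlap between stages in TMM-scaled CPM. Their direction could therefore hardly turn, and its being kept says little. Counts were 136 and 75 without the filter on low counts, 186 and 127 with DESeq2, 94 and 87 with limma-voom, and 3 and 1 with all 12 aortic libraries. Leaving out 1 library gave 21 to 44 and 6 to 17. Larger counts did not mean that every main call was kept. Rag1, Prg4, Mmp14 and Clec4d lost their calls with limma-voom, and Nt5e, Pf4, Cxcl16, Skil, Sdcbp and Clic4 lost theirs with the replicate block. Replicate numbers did not pair the libraries: same-numbered libraries correlated at −0.05 to −0.001 in their deviations and 0 of 4 pairs correlated best with their own number; the replicate block gave 40 and 18 calls. Monocytes (52 and 102) gave 130 and 283 without the filter, 127 and 212 with DESeq2, 29 and 84 with the replicate block, and 8 to 80 and 16 to 200 with 1 library left out. Peritoneal macrophages (10 and 14) gave 25 and 89, 65 and 134, 11 and 22, and 1 to 22 and 1 to 55. These alternatives for the other populations were chosen after seeing the data. Differences in response (4 and 0) numbered 394 and 467 without weights, and 1 to 43 and 0 to 17 with 1 aortic library left out. The log2 fold change of Apoe, −0.14 and not called, was 0.11 on thinned counts and −0.73 to 0.22 with 1 library left out (0.22 without early 2, 0.10 without advanced 2). The cause of these changes was not tested. In libraries of 1.07 to 2.63 M reads, genes near 1 CPM rest on single reads, and genes low in both groups did not pass the filter and were tested only in the fit without it.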
